A study of Mus musculus with 4 samples.

Results

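Sustentacular nuclei of the nasal epithelium were described from single-nucleus RNA-seq of mouse brain, in which transcripts are counted per nucleus as unique molecular identifiers (UMIs). They were taken from the 2 libraries labelled striatum, which were pooled because nearly all of them came from 1 library. A nucleus was chosen when it held at least 3 UMIs of Cyp2g1 and Aox2 together, at most 1 UMI of Gfy, Stoml3 and Umodl1 together, and at most 1 UMI of Mog, Aqp4, Csf1r and Cldn5 together. The first pair are enzymes of the olfactory mucosa. The 3 genes of the second group mark olfactory sensory neurons, and the 4 genes of the third group mark oligodendrocytes, astrocytes, microglia and endothelium. The rule chose 119 of 41190 nuclei in these libraries, and 78728 nuclei were deposited for the whole series. The name of the set follows the genes of the rule, and 18 of the 119 held the Bowman gland gene Muc5b, described below. The nuclei were chosen by the counts of these 9 genes, so their values below are a description, and every other gene of the same nuclei is described in the same way, without a test.

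The mice were male C57BL/6J. At 4 weeks of age each was given a viral vector (AAV, adeno-associated virus) by injection through the cisterna magna, a fluid space at the base of the brain. AAV-VEGF-C encoded the full-length growth factor VEGF-C of the mouse, which acts on lymphatic endothelium. AAV-CTRL encoded a soluble fragment of VEGF receptor 3 that does not bind ligand, joined to an immunoglobulin domain, so both groups made a secreted protein from a vector. Brain pieces were taken at 8 weeks, frozen, and pooled from 5 mice for each virus, and 1 library was made for cortex and 1 for striatum from each pool. There were therefore no replicate libraries, and all intervals below are 95% intervals that cover counting error only. The libraries held 17168 to 23724 nuclei, with a median of 2272 to 2873 UMIs per nucleus. In the libraries labelled striatum the striatal genes Ppp1r1b and Rgs9 were lower than in those labelled cortex, Ppp1r1b at 18.1 CPM (UMIs of the gene per 10 to the power 6 UMIs in all) in both against 62.6 and 74.8, so the labels are used here as names only. Between 76 and 118 cell barcodes were shared by any pair of libraries, and 0 of the chosen barcodes of either striatum library occurred in the other.

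Sustentacular cells are the supporting epithelium of the olfactory mucosa. They wrap the dendrites of olfactory sensory neurons, reach the mucus with apical microvilli, and lie above basal stem cells and beside the ducts of Bowman glands, which secrete mucus. They are rich in cytochrome P450 enzymes and conjugating enzymes that modify inhaled chemicals and odorants, and they take part in salt and water balance of the mucus. They are not cells of the brain, and no label or method text named nasal tissue as a sample.

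The chosen nuclei were mostly in the AAV-CTRL library labelled striatum. It held 115 of its 23724 nuclei, or 0.485% (0.400 to 0.582, Clopper-Pearson). The AAV-VEGF-C library labelled striatum held 4 of 17466, or 0.0229% (0.00624 to 0.0586). The share was 21.2-fold higher in the AAV-CTRL library, a log2 ratio of AAV-VEGF-C over AAV-CTRL of -4.40 (-6.30 to -3.01), which compares this pair of libraries and not the viruses. The libraries labelled cortex held 0 of 17168 and 0 of 20370, with upper ends of the Clopper-Pearson intervals at 0.0215% and 0.0181%. Olfactory sensory neuron nuclei were taken as those with at least 3 UMIs of Gfy, Stoml3 and Umodl1 together, at most 1 of Cyp2g1 and Aox2, and at most 1 of the brain genes. They numbered 170 in the AAV-CTRL and 17 in the AAV-VEGF-C library labelled striatum, a log2 ratio of -2.88 (-3.69 to -2.16). There were 3 in each library labelled cortex. Olfactory neurons were thus also fewer in the second library. Dissection, mouse pool and virus differed together between the libraries and cannot be told apart.

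The 4 nuclei of the AAV-VEGF-C library were not alike. One held 17 UMIs of Cyp2g1 and 31 of Aox2, another 28 and 30, and these carried 10 and 7 of 16 further sustentacular markers. The third held 10 UMIs of Aox2 and 1 of the further markers. The fourth held 3 UMIs of Aox2 and 0 of them. The levels in chosen nuclei below therefore rest mostly on the AAV-CTRL library, whereas the other nuclei they are set against come from both libraries.

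Aox2, an aldehyde oxidase, had a median of 14 UMIs and at most 46 in a chosen nucleus. It was counted in 115 of the 119 nuclei, and its summed level was 5479 CPM against 12.2 CPM in all other nuclei of the same libraries. Cyp2g1, an olfactory cytochrome P450, was counted in 84 nuclei with at most 28 UMIs, at 1381 CPM against 5.41 CPM. Both genes were present in 80 nuclei, 35 had Aox2 only and 4 had Cyp2g1 only. Their sum ran from 3 to 72 with a median of 17, and 82 nuclei held 10 or more. Cyp2g1 lies on chromosome 7 at 26808892 to 26821205 and Aox2 on chromosome 1 at 58278326 to 58380259, both on the plus strand of GRCm38.

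Free RNA in droplets gives UMIs in nuclei that do not make a gene, and oligodendrocyte nuclei were used to measure it. Nuclei with at least 5 UMIs of Mog, Mag and Mobp together held a Cyp2g1 UMI in 1.64% and an Aox2 UMI in 1.13% of 2922 nuclei of the AAV-CTRL library, at a median depth of 2055.5 UMIs. In the AAV-VEGF-C library these were 0.653% and 0.413% of 2908 nuclei at a median depth of 2305 UMIs. The chosen nuclei had a median depth of 2115 UMIs, and the share with Aox2 was 96.6%. Of all Aox2 UMIs of the AAV-CTRL library 54.0% were in chosen nuclei, and of all Cyp2g1 UMIs 40.6%.

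The 3 UMI minimum lay on the falling side of the distribution, and not in a gap. Within both limits, 641 nuclei held 1 UMI of the pair, 24 held 2 and 10 held exactly 3. Over wider ranges, 18 held 5 to 9, 34 held 10 to 19 and 48 held 20 or more. Just inside the minimum, the 10 nuclei with 3 UMIs had Cyp2a5 at 464 CPM, on 16 UMIs in 6 nuclei. Their Cbr2 was at 377 CPM, on 13 UMIs in 3 nuclei, with 10 of the UMIs in 1 nucleus. Just outside, the 24 nuclei with 2 UMIs had Cyp2a5 at 167 CPM, on 17 UMIs in 6 nuclei, and Cbr2 at 9.85 CPM, on 1 UMI. With so few UMIs these values do not show a break at the minimum. The share of nuclei with 3 or more of the 16 further markers was 0.200% of the 30031 nuclei with none of the pair, 16.7% of those with 2 UMIs, 52.6% of the 19 with 3 or 4, 55.6% of the 18 with 5 to 9, 85.3% of the 34 with 10 to 19 and 91.7% of the 48 with 20 or more. Nuclei with fewer rule UMIs held more RNA of brain neurons: the summed level of 12 neuronal genes was 20121 CPM at 3 or 4 UMIs and 8952 CPM at 20 or more. The part of free RNA in the lower bins was not tested.

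**Figure D1:**
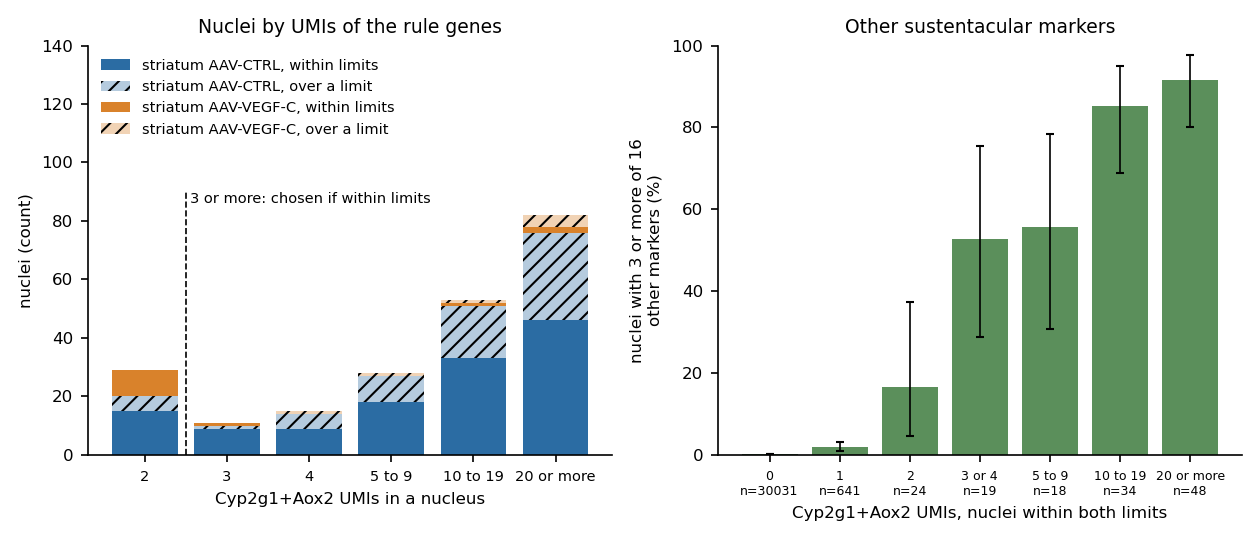
Left, number of nuclei (y axis) of the 2 libraries labelled striatum by their UMIs of Cyp2g1 and Aox2 together (x axis, from 2), stacked by library, with hatched bars for nuclei over either limit and a dashed line at the minimum of 3. Right, percent of nuclei within both limits that held 3 or more of 16 other sustentacular markers, with exact binomial 95% intervals; the share was 16.7% at 2 UMIs and 91.7% at 20 or more.

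The limit on brain genes removed many nuclei with the rule pair. In all 178 nuclei of the AAV-CTRL library and 11 of the AAV-VEGF-C library held 3 or more UMIs of the pair, 15 and 5 were over the olfactory neuron limit, and 56 and 5 were over the brain limit. Of these 61 nuclei, 54 held Aqp4, a water channel, 21 held Mog, 11 Cldn5 and 3 Csf1r. Of the nuclei within the olfactory limit, 39 were over the brain limit but would have been within it had Aqp4 been left out. Their Aqp4, 1 to 5 UMIs in each, was fixed by this choice. The 9 other astrocyte genes summed to 2193 CPM in them, 1567 CPM in the chosen nuclei and 2230 CPM in all other nuclei. Scrublet called 7 of the 39 doublets (17.9%), against 9.24% of the chosen nuclei. The part of astrocyte doublets among them was not tested. The 39 nuclei carried Cyp2a5 at 1823 CPM and Por at 1700 CPM. In the chosen nuclei Aqp4 was 1 UMI in each of 39 nuclei, the most the rule allowed, or 121 CPM against 83.3 CPM in other nuclei and 35.2 CPM in olfactory neuron nuclei.

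The chosen nuclei held 844 to 11956 UMIs and 703 to 4819 genes, with medians of 2115 and 1508. Mitochondrial transcripts were a median of 0.935% of UMIs. Scrublet called 11 of them doublets (9.24%), against 7.95% and 4.31% of all nuclei in the AAV-CTRL and AAV-VEGF-C libraries labelled striatum. The 11 doublet calls had a median of 4583 UMIs and the 108 others 2085.5.

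The label was checked against 16 further markers of sustentacular cells. All 16 had a UMI in the chosen nuclei, 13 had enough UMIs for a comparison, and 11 of these were at least 4-fold higher than in other nuclei, where 5.03% of all genes compared were. The 11 were too rare in other nuclei to reach the minimum for a comparison (given below) unless they were higher in the chosen nuclei, so this count adds nothing to their values and is not evidence for the label. The highest were the mucosal glucuronosyltransferase Ugt2a1, the mucin Muc2, the carbonyl reductase Cbr2, the lipid-binding Sec14l3, the sulfotransferase Sult1c1 and the cytochromes P450 Cyp2a5 and Cyp2f2. The other 2, Sox2 and Ermn, had log2 ratios of 0.76 (0.02 to 1.40) and 0.62 (-0.07 to 1.24). Both are also genes of brain glia, Ermn of oligodendrocytes. A nucleus held a median of 5 of the 16 markers and at most 10; 93 nuclei (78.2%) held 3 or more, against 205 (0.499%) of all other nuclei, and 4 held 0. Other nuclei include those over the limits, and 53 of the 61 over the brain limit held 3 or more.

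A second selection left the rule genes out. It asked for at least 3 UMIs over Cyp2a5, Cyp2f2, Ugt2a1, Sult1c1, Muc2, Sec14l3 and Cbr2 from 2 or more of these 7 genes. It found 200 nuclei in the libraries labelled striatum, 188 in the AAV-CTRL and 12 in the AAV-VEGF-C library, and 1 and 0 in those labelled cortex. Of the 200 nuclei 94 were among the chosen, 47.0% of this selection and 79.0% of the chosen. In all 158 of the 200 held 3 or more UMIs of Cyp2g1 and Aox2, and 23 held 0. The 7 genes are those named above as highest in the chosen nuclei, so these overlaps were in part fixed by that choice. The overlaps are not evidence for the label.

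Over all genes, the 321594 UMIs of the chosen nuclei were compared with the UMIs of the 41071 other nuclei of the same libraries. A gene was compared when it had at least 10 UMIs after both sums were set to the size of the chosen nuclei and added, which held for 9845 genes. Of these, 495 (5.03%) were at least 4-fold higher in the chosen nuclei and 99 (1.01%) at least 4-fold lower, and the median log2 ratio was 0.05. When each nucleus had the same weight (the mean of CPM per nucleus), 475 were higher and 205 lower. A gene with 0 UMIs in a group was set to 3 UMIs over the group. The other nuclei of the 2 libraries differed for some genes, such as Cyp2a5, at 2.17 CPM in those of the AAV-VEGF-C library and 19.1 CPM in those of the AAV-CTRL library. With the AAV-CTRL library alone, 25 of 254 named or listed genes had ratios lower by over 1.5 times. Aox2 was then at 8.23 on the log2 scale, Gm15759 at 8.20, Ugt2a1 at 7.99, Cyp2a5 at 6.29, Cyp2f2 at 6.24, Epcam at 5.53 and Bpifb4 at 3.58. Acsm4, Adh1, Agr2, Aqp3, Aqp5, Ces1d, Ces1f, Cyp1a2, Fmo6, Kcnj15, Muc5b, Omp, Srd5a2, Sult1c1 and Sult1e1 were lower likewise, and all 22 of the 25 that were at least 4-fold higher remained so. A gene rare in other nuclei reaches the minimum of 10 UMIs only if it is high in the chosen nuclei, so the counts and medians for gene lists here describe the genes that reached it and support nothing about a list.

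The 20 genes of highest fold outside the rule, among those with at least 20 UMIs and in at least 20% of the chosen nuclei, included mucins, enzymes and channels. Muc16, a membrane-anchored mucin, was at 622 CPM against 1.06 CPM, a log2 ratio of 9.19 (8.88 to 9.50), in 64 nuclei with at most 8 UMIs each. Abca13, a large lipid transporter of the ABC family, was at 1104 CPM against 2.77 CPM (log2 8.64, 8.43 to 8.85) in 79 nuclei. Muc2, a gel-forming mucin, was at 277 CPM against 1.15 CPM (7.91, 7.53 to 8.29) in 49 nuclei. Agr2, a protein disulfide isomerase needed for mucin folding, was at 202 CPM against 1.57 CPM in 46 nuclei. These 4 genes were at 2.07 to 10.4 CPM in the 187 olfactory neuron nuclei. They were at 0 to 1.74 CPM in 156 nuclei of choroid plexus, another epithelium, taken by at least 3 UMIs of Folr1, Kl and Clic6 together.

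Enzymes were also frequent among the 20. Cbr2 was at 1095 CPM against 4.85 CPM (log2 7.82, 7.63 to 8.00) with at most 20 UMIs in a nucleus. Srd5a2, a steroid reductase, was at 168 CPM against 0.829 CPM in 28 nuclei. Acnat1, an acyltransferase of peroxisomes, was at 177 CPM against 0.926 CPM in 41 nuclei. Aqp3, a water and glycerol channel, was at 177 CPM against 0.767 CPM in 33 nuclei, with 12 of its 57 UMIs in 1 nucleus. Kcnj15, an inward rectifier potassium channel, was at 121 CPM against 0.746 CPM in 28 nuclei. The cadherin Cdh26, the metalloprotease Adam28, the surface protein Cdcp1 and the epithelial transcription factor Elf5 had log2 ratios of 7.18, 7.25, 7.08 and 6.95. Tprg, Ccdc129 and the chromatin protein Hmga2 had log2 ratios of 8.01, 7.21 and 6.99. In oligodendrocyte nuclei a UMI of the 20 genes was found in 0.0343% of nuclei (Hmga2) to 1.78% (Cyp2a5), and in 24 (Tprg) to 103 (Cyp2a5) of the 119 chosen nuclei.

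**Figure D2:**
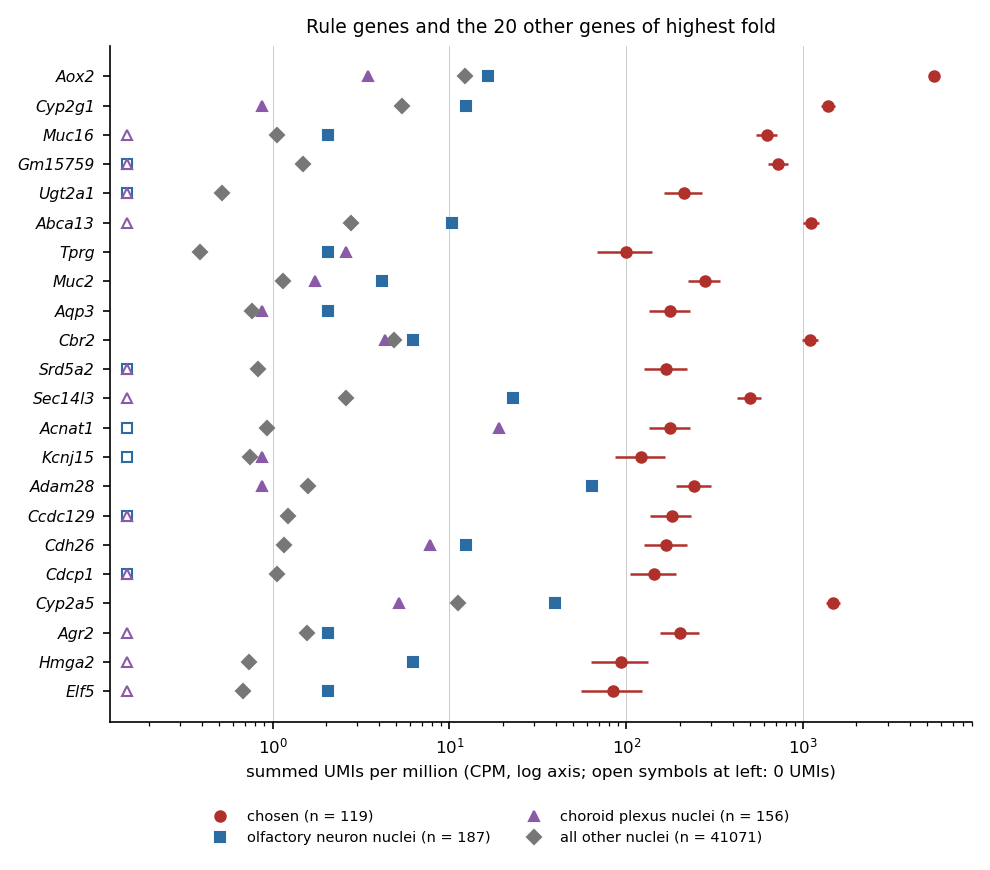
Summed level (x axis, CPM, log scale) of Aox2, Cyp2g1 and the 20 other genes of highest fold (y axis) in the 119 chosen nuclei, 187 olfactory neuron nuclei, 156 choroid plexus nuclei and 41071 other nuclei of the libraries labelled striatum. Red lines are exact Poisson 95% intervals of the chosen nuclei, and open symbols at the left edge stand for 0 UMIs; each gene was highest in the chosen nuclei, where Muc16 was at 622 CPM and Aox2 at 5479 CPM.

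The most abundant transcripts of the chosen nuclei were in part general. Malat1, Gm42418, mt-Co3, mt-Atp6 and mt-Co1 are high in most nuclei, and had log2 ratios of 0.04 (Gm42418) to 0.81 (mt-Atp6). Meg3, Pcdh9 and Tenm2, abundant in brain neurons, were among the 10 genes with most UMIs although they were lower than in other nuclei, with log2 ratios of -1.08, -0.72 and -0.26. A few nuclei carried much of these sums: Meg3 had a median of 2 UMIs and 143 of its 1415 in 1 nucleus, Pcdh9 a median of 2 and 87 of 789 in 1, and Tenm2 a median of 3 and 67 of 680 in 1. Besides Aox2, 1 of the 10 was at least 4-fold higher. This was Mecom, a zinc finger transcription factor also made by endothelium, with 807 UMIs in 107 nuclei, at 2509 CPM against 72.3 CPM (log2 5.12, 5.01 to 5.22). It was at 31.1 CPM in olfactory neuron nuclei and 355 CPM in choroid plexus nuclei.

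Among enzymes that oxidise or reduce foreign compounds, most of those compared were higher. Of 56 genes on the list, 43 had a UMI in chosen nuclei, 28 were compared and 28 had too few UMIs. Of those compared, 21 were at least 4-fold higher and 0 lower, beside 5.03% and 1.01% of all genes compared. Their median log2 ratio was 3.85, against 0.05 for all genes compared. Cyp2a5, a P450 that hydroxylates coumarin, was in 103 nuclei with a median of 3 and at most 23 UMIs, at 1471 CPM against 11.2 CPM (log2 7.04, 6.89 to 7.19). Cyp2f2, a P450 that acts on naphthalene, was in 77 nuclei at 588 CPM against 5.00 CPM. Por, the reductase that passes electrons to all microsomal P450 enzymes, was in 101 nuclei at 1496 CPM against 73.9 CPM, a log2 ratio of 4.34 (4.20 to 4.47). The electron donor Cyb5a was at 252 CPM against 54.1 CPM.

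Flavin monooxygenases and carboxylesterases were included. Fmo6, Fmo2, Fmo5 and Fmo1 had log2 ratios of 7.61, 5.61, 5.25 and 3.13, and Ces1f and Ces1d 7.86 and 6.50. Among dehydrogenases Aldh1a7 was at 80.8 CPM against 0.802 CPM and Adh1 at 49.8 CPM against 1.08 CPM, while Aldh1a1, which oxidises retinal, was at 80.8 CPM against 61.2 CPM. Cyp1a2, which activates aromatic amines, was at 52.9 CPM against 0.788 CPM in 15 nuclei. Ephx1, an epoxide hydrolase, was at 112 CPM against 8.33 CPM. The list had 13 genes at 0 UMIs, among them Cyp2e1, Cyp1b1, Adh7 and Aox1. A count of 0 allows up to 9.33 CPM here, taken as 3 UMIs over the group, and up to 11.5 CPM by the exact Poisson interval. Over all 101 Cyp genes in the files, 35 had a UMI and 17 were compared. Of the 17, 11 were higher, Cyp2g1 of the rule among them, and 0 lower, beside 5.03% and 1.01% of all genes compared.

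The enzymes of the rule lie in gene clusters in which some neighbours had many UMIs and others few or none. The aldehyde oxidase genes Aox1, Aox3, Aox4 and Aox2 follow each other on chromosome 1, all on the plus strand. In the chosen nuclei they had 0, 23, 3 and 1762 UMIs. Aox3 was at 71.5 CPM against 4.64 CPM (log2 3.94, 3.28 to 4.54). Aox1 was at 8.38 CPM in other nuclei, under the 9.33 CPM that a count of 0 allows here, so no difference was detectable. The long noncoding gene Gm15759, on the minus strand at 58254117 to 58315656, overlaps the start of Aox2 and part of Aox4. It had 232 UMIs in 86 nuclei, 721 CPM against 1.48 CPM (log2 8.93, 8.66 to 9.20). Each of its 86 nuclei also held Aox2, but Aox2 helped choose the nuclei and was in 115 of all 119. The sources used here do not say how strand was counted, so reads of Gm15759 and Aox2 are uncertain relative to each other.

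On chromosome 7, Cyp2g1, Cyp2a5 and Cyp2f2 belong to a cluster of 13 Cyp2 genes, in which Cyp2g1 and Cyp2a5 are next to each other on the plus strand. Their UMIs in chosen nuclei were 444, 473 and 189. The genes between Cyp2a5 and Cyp2f2, Cyp2a22 and Cyp2a12, had 0 UMIs, as had Cyp2s1, Cyp2b9, Cyp2b23, Cyp2b19 and Cyp2t4. These 7 were at 0 to 4.83 CPM in other nuclei, also under 9.33 CPM. Cyp2b10, Cyp2b13 and Cyp2a4 had 3, 2 and 3 UMIs. Cyp2a4 is nearly identical to Cyp2a5, so the division of their reads is uncertain. Gm15883, antisense within Cyp2f2, had 16 UMIs, uncertain for the same reason as Gm15759. Of the 84 nuclei with Cyp2g1, 79 also held Cyp2a5, which was in 103 of all 119.

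**Figure D3:**
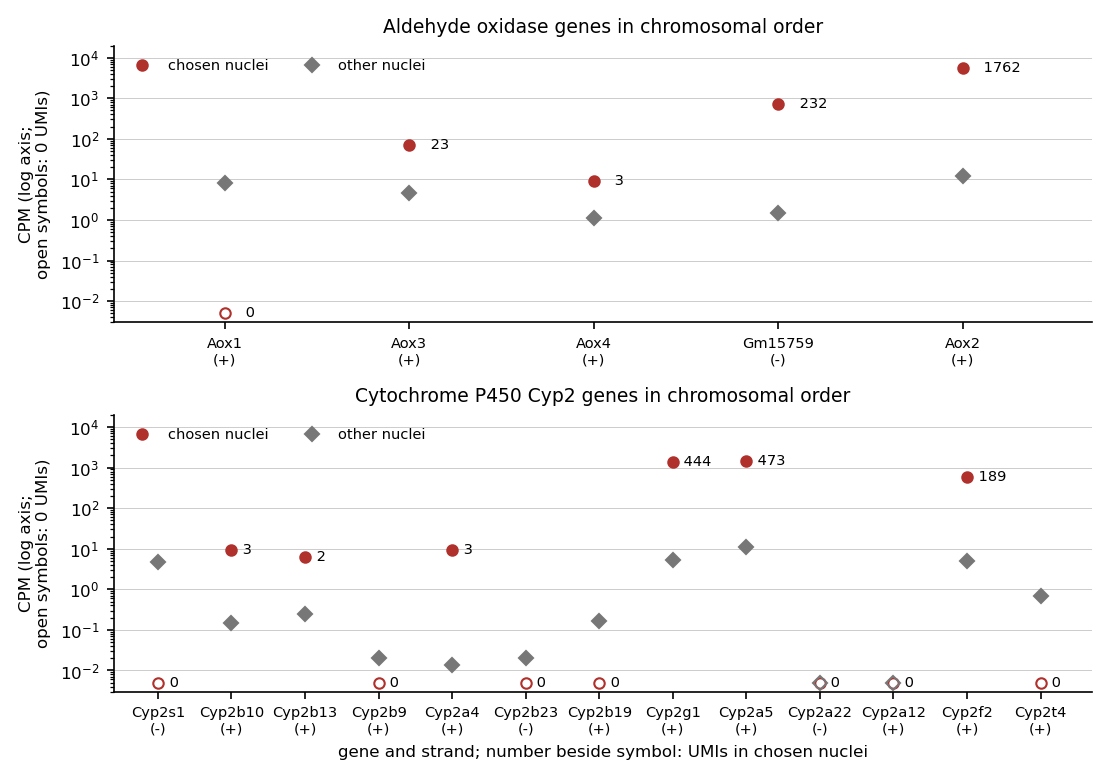
Summed level (y axis, CPM, log scale) of the Aox genes with Gm15759 (upper panel) and of the Cyp2 cluster (lower panel), in chromosomal order with strand below each symbol (x axis). Red circles are chosen nuclei, grey diamonds other nuclei, open symbols 0 UMIs, and the number beside each red symbol is the UMI count in chosen nuclei; Cyp2g1, Cyp2a5 and Cyp2f2 had 444, 473 and 189 UMIs, and the other 10 Cyp2 genes of the cluster 0 to 3.

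The promoters of Aox2 and Cyp2a5 are shown because these genes were at like levels in chosen nuclei with and without Muc5b, which for Aox2 the rule fixed in part. Those of Cbr2 and Muc16 are shown because these were lower in the nuclei with Muc5b, described below. Each is the reference sequence (RefSeq, GRCm38.p6) from 250 bases before to 50 bases after the annotated start. The table used had no entry for Cyp2g1.
Aox2, chr1:58278076-58278375, plus strand: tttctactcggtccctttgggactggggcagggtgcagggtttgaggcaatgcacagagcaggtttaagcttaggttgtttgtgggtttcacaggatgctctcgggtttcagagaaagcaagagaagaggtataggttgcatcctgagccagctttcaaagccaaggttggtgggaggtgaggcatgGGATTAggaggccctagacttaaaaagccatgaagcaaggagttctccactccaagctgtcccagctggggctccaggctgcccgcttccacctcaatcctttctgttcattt
Cyp2a5, chr7:26835089-26835388, plus strand: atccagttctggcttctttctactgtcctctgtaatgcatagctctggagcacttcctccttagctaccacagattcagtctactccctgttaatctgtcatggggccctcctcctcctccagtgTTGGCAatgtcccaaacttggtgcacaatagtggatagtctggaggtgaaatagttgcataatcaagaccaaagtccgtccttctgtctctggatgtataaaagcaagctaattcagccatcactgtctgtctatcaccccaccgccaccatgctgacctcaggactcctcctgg
Cbr2, chr11:120731972-120732271, minus strand: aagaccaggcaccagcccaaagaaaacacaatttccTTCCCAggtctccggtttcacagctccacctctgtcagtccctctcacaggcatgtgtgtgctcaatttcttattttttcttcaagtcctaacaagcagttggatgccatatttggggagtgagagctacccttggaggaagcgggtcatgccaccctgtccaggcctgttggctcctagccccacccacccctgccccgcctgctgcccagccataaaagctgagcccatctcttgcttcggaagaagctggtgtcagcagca
Muc16, chr9:18674554-18674853, minus strand: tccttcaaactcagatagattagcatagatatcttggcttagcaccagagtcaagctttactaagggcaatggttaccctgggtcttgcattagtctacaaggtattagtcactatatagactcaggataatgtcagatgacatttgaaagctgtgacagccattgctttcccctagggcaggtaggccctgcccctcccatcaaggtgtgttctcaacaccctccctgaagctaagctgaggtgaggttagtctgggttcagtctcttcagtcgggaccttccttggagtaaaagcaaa

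Capitals mark matches, on either strand, to 5 letter strings: TAATCC (bound by OTX factors), AACCGGTT (grainyhead-like factors), TGGGAA (RBPJ), GCGTG (the aryl hydrocarbon receptor) and TTGGCA (NFI factors). In Aox2 the match was to TAATCC on the opposite strand, in Cyp2a5 to TTGGCA, in Cbr2 to TGGGAA on the opposite strand, and in Muc16 there was none. No matches overlapped. Of all 32851 promoters of this length in the table, 7.06% held TAATCC, 0.146% AACCGGTT, 25.6% TGGGAA, 32.4% GCGTG and 14.1% TTGGCA. Among the 358 genes at least 4-fold higher that had an entry, the shares were 10.1%, 0.279%, 23.5%, 43.3% and 17.0%, beside 6.93%, 0.316%, 25.9%, 57.6% and 14.0% of the 7587 genes compared. These are counts of letters and say nothing of binding.

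Conjugating enzymes followed in smaller number. Of 60 genes of conjugation and glutathione, 40 had a UMI, 22 were compared, 8 were at least 4-fold higher and 0 lower, beside 5.03% and 1.01% of all genes compared, with a median log2 ratio of 1.16. Ugt2a1, which glucuronidates odorants, was at 211 CPM against 0.518 CPM in 36 nuclei (log2 8.67, 8.18 to 9.17). It shares its locus with Ugt2a2, which had 1 UMI, and their division is uncertain. The sulfotransferases Sult1c1 and Sult1e1 were at 177 and 65.3 CPM against 1.11 and 0.477 CPM. Mgst1, Gstm2 and Gsta3, glutathione transferases, had log2 ratios of 4.21, 3.97 and 3.64. Gpx4 and Gpx1, peroxidases of most cells, were at 202 and 40.4 CPM against 162 and 37.8 CPM.

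Transporters divided in direction. Of 30 export and uptake transporters 20 were compared, 6 were higher and 3 lower, beside 5.03% and 1.01% of all genes compared. The organic anion carrier Slco1a5 was at 87.1 CPM against 0.864 CPM, Abcc3 at 96.4 CPM against 2.74 CPM and the peptide carrier Slc15a2 at 124 CPM against 12.6 CPM. The lower genes, Slco1a4, Slco1c1 and Abcb1a, are transporters of brain endothelium, whose marker Cldn5 the rule capped. Abcb1a had 0 UMIs and was 4.18-fold below other nuclei when set to 3 UMIs, so its call rests on that setting.

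Genes of epithelial junctions, keratins and mucins were treated likewise. Of 55 genes 34 were compared, 21 were higher and 0 lower, beside 5.03% and 1.01% of all genes compared. The median log2 ratio of those compared was 2.92. Cdh1, the epithelial cadherin, was in 45 nuclei at 230 CPM against 6.25 CPM. Epcam was in 24 nuclei at 146 CPM against 1.51 CPM, with 11 of its 47 UMIs in 1 nucleus, and it was at 58.0 CPM in olfactory neuron nuclei. The simple epithelial keratins Krt8 and Krt18 were at 71.5 and 77.7 CPM against 1.27 and 1.87 CPM. Grhl2, a regulator of epithelial junction genes, was at 106 CPM against 3.53 CPM. Tjp1, a tight junction scaffold that neurons and endothelium also make, was at 183 CPM against 347 CPM.

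Among transcription factors of the olfactory placode and of the xenobiotic response, 24 of 41 were compared, 10 were higher and 0 lower, beside 5.03% and 1.01% of all genes compared. Eya1, a transcriptional coactivator, was in 95 nuclei at 1054 CPM against 24.7 CPM (log2 5.41, 5.25 to 5.58). Otx2 and Pax6, which pattern the anterior head, were at 183 and 155 CPM against 13.5 and 14.4 CPM, and Otx2 was at 138 CPM in choroid plexus nuclei. Epas1, which responds to low oxygen, was at 868 CPM against 89.8 CPM. Ahr, the receptor for aromatic hydrocarbons, was at 34.2 CPM against 7.95 CPM on 11 UMIs, a log2 ratio of 2.11 (1.10 to 2.95). Nfe2l2, of the oxidative stress response, was at 62.2 CPM against 23.9 CPM, and the xenobiotic receptor Nr1i2 had 0 UMIs.

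Notch signalling separates supporting from neuronal fates in many sensory epithelia. Of 29 Notch pathway genes 16 were compared, 2 were higher and 0 lower, beside 5.03% and 1.01% of all genes compared, so the count is not a result about the pathway. The 2 were the receptor Notch2, at 187 CPM against 26.5 CPM (log2 2.81, 2.42 to 3.18), and the target Hes1, at 149 CPM against 21.4 CPM (2.80, 2.36 to 3.21). The receptor Notch3 was just under 4-fold, at 149 CPM against 37.7 CPM. Notch1, the ligand Jag1 and the DNA-binding Rbpj had log2 ratios of 0.50, 1.68 and -0.05. In olfactory neuron nuclei Notch2 was at 12.4 CPM and Hes1 at 6.21 CPM, and in choroid plexus nuclei at 202 and 49.5 CPM. The ligands Dll1, Dll3 and Dll4 and the target Hes5 had 0 UMIs.

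Of 38 genes of ion, water and endocytic support 24 were compared, 9 were higher and 1 lower, beside 5.03% and 1.01% of all genes compared. Lrp2, the endocytic receptor megalin, was in 38 nuclei at 177 CPM against 2.31 CPM, and the scavenger receptor Cd36 in 36 nuclei at 205 CPM against 2.36 CPM, with 37.3 CPM in olfactory neuron nuclei. Aqp5 was at 96.4 CPM against 1.19 CPM. The potassium channel Kcnq1 was at 56.0 CPM (log2 ratio 3.81), and at 55.9 CPM in olfactory neuron nuclei. Atp1b1, a subunit of the sodium pump, was at 892 CPM against 848 CPM. The lower gene was Mertk, a receptor for engulfing dead cells, with 3 UMIs.

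Among surface proteases, the epithelial serine protease Tmprss2 was in 22 nuclei at 87.1 CPM against 0.346 CPM (log2 7.98, 7.25 to 8.67), with 0.0343% of oligodendrocyte nuclei holding a UMI. Furin, Ctsb and Ctsl, proteases of most cells, had log2 ratios of 0.38, -0.07 and 0.76.

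The virus in the treated animals encoded VEGF-C, whose main receptor is the product of Flt4. In the chosen nuclei Flt4 had 0 UMIs, Kdr 6 and Vegfc 1. A count of 0 allows up to 9.33 CPM here, so absence of Flt4 cannot be read from it. Of 10 VEGF ligands and receptors 6 were compared, 0 were higher and 1 lower, beside 5.03% and 1.01% of all genes compared. The lower gene was Flt1, at 15.5 CPM against 174 CPM (log2 -3.49, -5.11 to -2.27). Flt1 had the lowest fold among genes for which the other nuclei predicted at least 50 UMIs, but it was at -1.27 without the limit on brain genes, which holds the endothelial Cldn5 and the oligodendrocyte gene Mog. Of the 10 genes of lowest fold, St18, Mag, Zeb2, Tmeff2, Zfp536 and Dock10 were held by 82.8% (Zfp536) to 97.3% (Tmeff2) of oligodendrocyte nuclei, and their log2 ratios were -2.10 (Dock10) to -2.56 (St18). Without the limit these 6 were at -1.42 (Zeb2) to -1.62 (Dock10), all under 4-fold. The others were Slc6a11, Tmem163 and Nell1, at -2.24, -2.04 and -2.00, and the first 2 were at -1.77 and -1.47 without the limit.

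The chosen nuclei were not uniform. Of 13 Bowman gland genes 7 were compared and 3 were at least 4-fold higher, beside 5.03% of all genes compared. The 3 were Aqp5, the gel-forming mucin Muc5b at 134 CPM against 2.01 CPM, and the secreted Bpifb4 at 314 CPM against 15.0 CPM. Muc5b was found in 18 of the 119 nuclei, with 12 of its 43 UMIs in 1 of them, and Bpifb4 in 20, with 29 of its 101 UMIs in 1. Of the 18 nuclei with Muc5b 11 held Bpifb4, but 1 held Muc16, 1 Abca13, 1 Muc2, 3 Cbr2 and 6 Cyp2g1. In comparison, of the 64 nuclei with Muc16, 57 held Abca13, 57 Cbr2 and 55 Cyp2g1. The subset was formed after these values were seen and is described without a test. The 18 nuclei with Muc5b had medians of 1606.5 UMIs in all and 11.5 of the rule pair, the 101 without it 2145 and 18. Muc5b was also held by 173 nuclei with no UMI of the pair, at most 4 UMIs in each. The part of free RNA in Muc5b was not tested.

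The 18 nuclei with Muc5b and the 101 without it were alike in some genes and not in others. Aox2 was at 4882 CPM in the 18 and 5574 CPM in the 101, and Cyp2a5 at 1544 and 1459 CPM. Mecom was at 2543 and 2504 CPM, and Eya1 at 1203 and 1030 CPM. By contrast Cyp2g1 was at 182 CPM in the 18 and 1571 CPM in the 101, a log2 ratio of -3.11 (-4.33 to -2.12). Aox2 and Cyp2g1 chose the nuclei, and 6 of the 18 held Cyp2g1. A nucleus without Cyp2g1 could be chosen only through Aox2. The likeness in Aox2 and its contrast with Cyp2g1 were therefore fixed in part by the rule.

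Other genes of high fold were also low in the nuclei with Muc5b. Cbr2 was at 363 and 1211 CPM (log2 -1.74, -2.56 to -1.02). Muc16 was at 114 and 703 CPM, Abca13 at 90.8 and 1265 CPM, and Sec14l3 at 45.4 and 569 CPM. Eya4, a relative of Eya1, was at 386 and 1128 CPM.

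In the other direction, Chil6, a chitinase-like secreted protein, was at 817 CPM in the 18 nuclei and 32.4 CPM in the 101 (log2 4.66, 3.57 to 5.90). The secreted Vmo1 was at 1816 and 180 CPM. Pparg, a nuclear receptor of lipid metabolism, was at 454 and 25.2 CPM, so 20 of the 27 UMIs that placed it among the higher transcription factors came from 18 nuclei. Fmo6 was at 681 and 82.9 CPM, and Fmo5 at 749 and 130 CPM. Sox9 and Sox10, factors of glands and of glia, were at 159 CPM each in the 18 nuclei and at 25.2 and 14.4 CPM in the 101, on 7 UMIs each in the 18. Aqp4 was found in 13 of the 18 nuclei and 26 of the 101. Of the 39 nuclei that would enter the set if Aqp4 were left out of the limit, 20 held Muc5b, 11 held Muc16 and 1 held both.

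**Figure D4:**
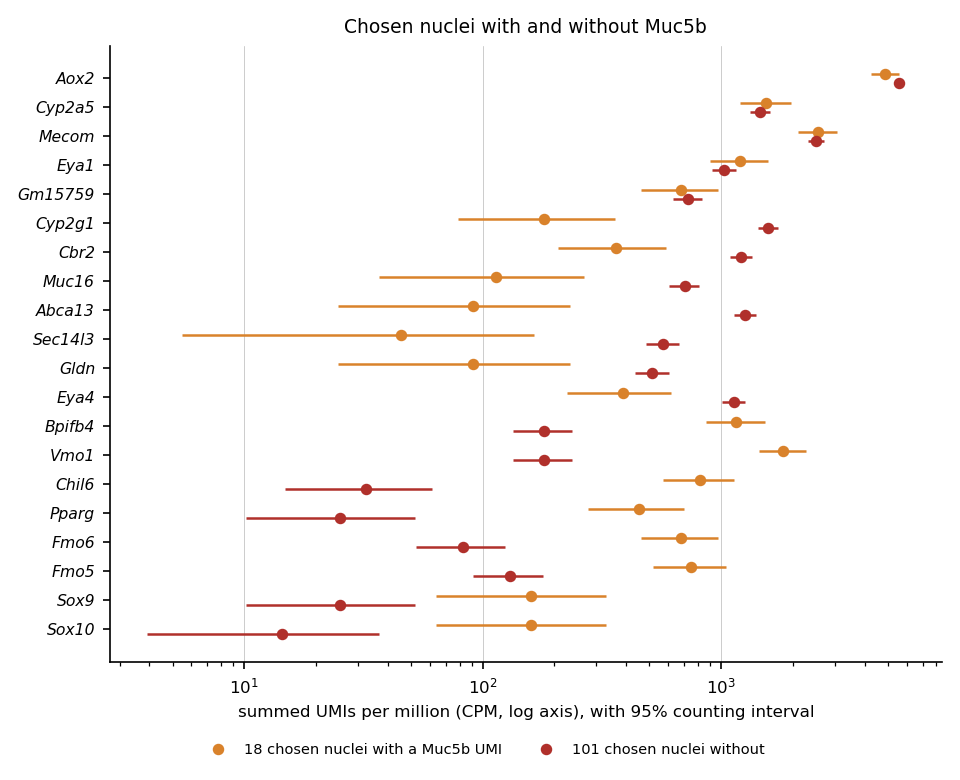
Summed level (x axis, CPM, log scale) of 20 genes (y axis) in the 18 chosen nuclei with a Muc5b UMI (orange) and the 101 without (red), with exact Poisson 95% intervals. Aox2, Cyp2a5, Mecom, Eya1 and Gm15759 lay side by side, Cyp2g1 to Eya4 were higher without Muc5b, and Bpifb4 to Sox10 were higher with it. Aox2 and Cyp2g1 are genes of the rule.

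Markers of further nasal cell types were few, and their counts of 0 to 3 higher genes a list, beside 5.03% of all genes compared, rest on 1 to 10 genes each. Of 20 olfactory neuron genes 10 were compared and 1 was higher, Omp, at 65.3 CPM in 19 nuclei against 9.59 CPM in other nuclei and 466 CPM in olfactory neuron nuclei. The list summed to 1054 CPM in chosen, 14917 CPM in olfactory neuron and 1596 CPM in other nuclei. It includes Gfy, Stoml3 and Umodl1, which the rule capped in the chosen nuclei and which selected the olfactory neuron nuclei. The difference between these sums was therefore fixed in part by the choice of nuclei. Of 12 genes of immature neurons and globose basal cells 5 were compared and 1 was higher, Tex15, in 26 nuclei. Of 10 horizontal basal cell genes 2 were compared and 1 was higher, Trp63, whose 14 UMIs lay in 2 nuclei.

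Of 14 ciliated cell genes 9 were compared and 3 were higher, Dnah12, Dnah6 and Spag17. A single nucleus held 155 of the list's 188 UMIs, 53 of the 60 of Dnah12 among them. That nucleus had 11956 UMIs in all, 4 of the rule pair and 3 of the 16 sustentacular markers, and was not called a doublet. Without it the list was at 107 CPM, against 205 CPM in other nuclei. Of 12 microvillar cell and ionocyte genes 3 were compared and 2 were higher, Atp6v1b1 in 12 nuclei and Cftr in 6. Of the 12 Cftr UMIs 7 lay in 1 nucleus. Trpm5, Foxi1 and Pou2f3, which define such cells, had 0 UMIs, which allows up to 9.33 CPM each. The respiratory secretory and olfactory ensheathing lists had 0 higher genes among 1 and 4 compared, and Scgb1a1, Bpifa1 and Prss56 had 0 UMIs.

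Transcripts of brain cells were also present. The rule capped Mog, Aqp4, Csf1r and Cldn5, so lower levels of genes of oligodendrocytes, astrocytes, microglia and endothelium were fixed in part by the choice of nuclei. The 12 neuronal genes summed to 12730 CPM against 27007 CPM in other nuclei, and to 10683 CPM in olfactory neuron nuclei, with 0 higher and 0 lower of the 12. Each chosen nucleus held at least 2 and a median of 12 of their UMIs. Of 11 oligodendrocyte genes 3 were lower, Mog, Mag and St18, beside 1.01% of all genes compared, and the list summed to 1791 CPM against 4417 CPM. Without the brain limit the 3 were at log2 ratios of -1.03, -1.44 and -1.53. Of 10 endothelial genes 9 were compared and 6 were lower, beside 1.01% of all genes compared, while Mecom was higher. The 6 included Cldn5 of the rule and Ptprb at 0 UMIs. The endothelial list summed to 2575 CPM against 675 CPM, with 2509 CPM of the first from Mecom.

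Among 10 astrocyte genes 9 were compared, 1 was higher and 1 lower, beside 5.03% and 1.01% of all genes compared. S1pr1 was lower, and Bmpr1b, a receptor for bone morphogenetic proteins, was higher, at 684 CPM in 74 nuclei against 49.3 CPM. The microglia and fibroblast lists had 0 higher and 0 lower genes of 4 and 7 compared. Of 10 choroid plexus genes 6 were compared, and 2 were higher, Clic6 at 215 CPM and Otx2, whereas the defining Ttr was at 112 CPM, against 342 CPM in other nuclei and 24519 CPM in choroid plexus nuclei. The part of free RNA in these levels was not tested.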

How the data were processed

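Nuclei were profiled by droplet-based single-nucleus RNA-seq in 4 libraries. The authors deposited filtered matrices of whole-number UMI counts per gene and nucleus, made with Cell Ranger (5.0.1 in the file headers, 5.1.1 in the submitters' processing notes) on mm10. The gene annotation and whether introns were counted are not given in the sources used here. All deposited nuclei were used without a further filter, and doublets were called with Scrublet in scanpy 1.11.5 (expected rate 8%) and kept. Of 31053 gene identifiers 30934 matched GENCODE M21, which gave positions on GRCm38, and promoters were taken from RefSeq.

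The chosen nuclei, the gene lists and the comparison sets were picked with earlier results of these data known. Counts were summed over nuclei, divided by the sum over all genes and scaled to CPM. With 1 library per group no test was made. Intervals for shares are Clopper-Pearson, for CPM exact Poisson and for ratios exact conditional binomial (scipy 1.17.1), all at 95%, and they leave out variation between mice. A gene was called higher or lower at 4-fold or more. The steps were tested on simulated data. Some listed genes are not reported here.

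Named were the 9 genes of the rule, the 20 of highest fold (at least 20 UMIs, in at least 20% of chosen nuclei), the 10 with most UMIs, the 10 of lowest fold (at least 50 UMIs predicted), list genes with at least 10 UMIs or at 0, and the Cyp genes. Genes named below these minima, the neighbours in the gene clusters, and the subset by Muc5b with its genes Eya4, Gldn, Vmo1 and Chil6 were chosen after their values were seen. Alternatives were other minima and limits for choosing nuclei, doublets left out, other scalings, thinning to 1000 UMIs, the AAV-CTRL library alone, and other minima and folds for genes.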

Additional observations from a re-analysis of the deposited data

How the results depend on the processing

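The number of chosen nuclei stayed within 1.5 times of 119 under all alternatives, from 100 with at least 5 UMIs of the pair to 169 without the brain limit. The log2 ratio of the share, AAV-VEGF-C over AAV-CTRL, lay between -4.57 and -3.90 except with at least 2 UMIs, where it was -2.88 on 13 and 130 nuclei. Leaving Aqp4 out of the brain limit, an alternative chosen after seeing the data, gave 158 nuclei and -4.22. The 495 genes at least 4-fold higher (5.03% of 9845) became 298 (5.42% of 5497) after thinning to 1000 UMIs. They became 315 (4.61% of 6830) with at least 20 UMIs per gene, 1714 (10.3% of 16572) without a minimum and 294 (2.99% of 9845) at 8-fold. The 99 lower genes (1.01%) became 63 (0.554% of 11369) without the brain limit, 159 (1.72% of 9270) without doublet calls and 205 (2.08% of 9845) by the mean of CPM per nucleus. They became 42 (0.615%) with at least 20 UMIs, 236 (1.42%) without a minimum and 14 (0.142%) at 8-fold, and thinning gave 134 (2.44%). Fewer or more genes compared, or another fold, accounts by construction for the changes with the minimum and the fold. Thinning also left fewer genes compared. For the changes other than those with the minimum and the fold, the cause was not tested. With the AAV-CTRL library alone 471 genes were higher, 460 of them among the 495, and the ratios of 25 of 254 named or listed genes were lower by over 1.5 times. All 11 named or listed genes tried that were at least 4-fold lower (Cldn5, Mog, Flt1, St18, Mag, Zeb2, Tmeff2, Zfp536, Slc6a11, Dock10 and Tmem163) were under 4-fold without the brain limit. Against only those other nuclei with no UMI of the pair, also chosen after seeing the data, 495 were higher and 101 lower. Of 3048 log2 ratios of 254 named or listed genes under 12 alternatives, 1 that was past 4-fold changed sign: Dnah6, at 2.22, was at -1.81 with at least 5 UMIs of the pair, which leaves out the nucleus that held 20 of its 21 UMIs. No paired analysis was possible because each group had 1 library and no result came from a test. The ratios of Ahr, Cftr, Cyb5a, Maob, Car12, Cyp27a1, Cyp2j6, Txnrd1, Trp63, Dnah12 and Spag17 were under 4-fold in some alternatives, with Ahr at 1.65 to 2.32 and Cftr at 1.90 to 2.56.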
